A study of Mus musculus with 35 samples.

Results

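The 10 genes described here encode sialic acid-binding lectins (Siglecs) and inhibitory immune receptors of microglia, with one ligand and one phosphatase that belong to the same circuits. They are Siglech, Siglece, Siglec1, Cd33, Sirpa, Cd47, Cd200r1, Pilra, Lair1 and Ptprc. They were picked by gene symbol from the 55401 gene identifiers of the mRNA count table, by a rule that uses no measured value, although the list was drawn up with earlier results of these data known. Each of the 10 passed the filter on low counts, which left 17612 genes to test, so the results cover every member.

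Inhibitory receptors let a microglial cell read signals that mark healthy tissue. Most carry a short cytoplasmic motif, the ITIM, which recruits the phosphatases SHP-1 and SHP-2 (Ptpn6 and Ptpn11) or SHIP-1 (Inpp5d) once a Src family kinase has phosphorylated it, and this damps phagocytosis and cytokine release. Siglecs bind sialic acid on cell surface glycans, SIRPα binds CD47, CD200R1 binds CD200 on neurons, LAIR1 binds collagens and C1q, and PILRα binds sialylated glycoproteins. Some members act differently: Siglec-H has no ITIM of its own and signals through the adaptor DAP12 (Tyrobp), and sialoadhesin (Siglec1) is mainly an adhesion receptor of macrophages.

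mRNA of CD45+ cells was sequenced from whole brains of wild type C57BL/6 mice of both sexes, with 1 library per mouse and no treatment. The groups were 5 females and 6 males of postnatal day 6 (P6), 6 females and 6 males of day 15 (P15), and 6 females and 6 males aged 8 weeks. The cells were collected by immunopanning on an antibody to CD45, the protein encoded by Ptprc, after the meninges had been taken off by hand, so a member of the list was also the antigen used to collect the cells. The comparisons rest on 34 mice, of which 10 were P6 pups and 12 each were of the later ages. P6 female 6 was left out, because the study removed an outlier that its text does not name and this mouse is the one absent from its list of plotted libraries, and its values are given separately.

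Libraries held 23316107 to 38965078 counts on genes. By these raw totals 3 counts, the smallest amount taken as detected, came to between 0.0770 and 0.129 CPM (counts scaled to a library total of 1000000). Other CPM values use TMM-scaled totals, so on their scale these bounds differ slightly. Microglial markers (Tmem119, P2ry12, Sall1, Gpr34, Olfml3) summed to 1852 to 3580 CPM at P6, 5788 to 10893 CPM at P15 and 7352 to 10693 CPM at 8 weeks. Markers of neural progenitors went the other way, from 617 to 1897 CPM at P6 to 82.2 to 194 CPM at 8 weeks. In P6 female 6 the microglial markers summed to 896 CPM and the neural progenitor markers to 2083 CPM. That mouse lay below all 10 other P6 mice in 9 members, with Siglece at 10.8, Cd33 at 120 and Sirpa at 667 CPM. It had 2.94 CPM of Cd200r1, 5.03 of Pilra, 59.3 of Lair1 and 38.9 of Ptprc. Since each library is a bulk sample, fewer cells of a type and less RNA per cell cannot be told apart in any value below.

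Between P6 and 8 weeks, 9 of the 10 members were higher in the adult and 1, Siglec1, was lower. The background was broad, because 37.8% of the 17612 genes tested were higher and 36.6% were lower by the same call (edgeR's quasi-likelihood test, Benjamini-Hochberg adjusted p below 0.05). The median log2 fold change of the members was 1.35, beside 0.038 over all genes tested. For 6 members (Siglech, Siglece, Cd33, Cd200r1, Lair1 and Ptprc) the rise was past 2-fold by a test against that fold, a call made for 11.5% of all genes. In 5 members (Siglech, Siglece, Cd47, Cd200r1 and Lair1) the lowest adult lay above the highest P6 mouse, as it did for 14.8% of all genes.

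The steps before and after P15 were compared separately. From P6 to P15, 8 members were called higher and 0 lower, where 30.4% of all genes were higher and 31.4% lower, and Siglece alone was past 2-fold (4.87% of all genes) and free of overlap (5.25%). From P15 to 8 weeks, 8 were called higher and 1 lower, against 24.0% and 23.9% of all genes. No member passed the 2-fold test in that step (1.20% of all genes rose past it), and none was free of overlap in the upward direction (1.65%). The comparison of P6 with P15 and that of P6 with 8 weeks share the P6 mice, so their values for a member are not independent.

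**Figure D1:**
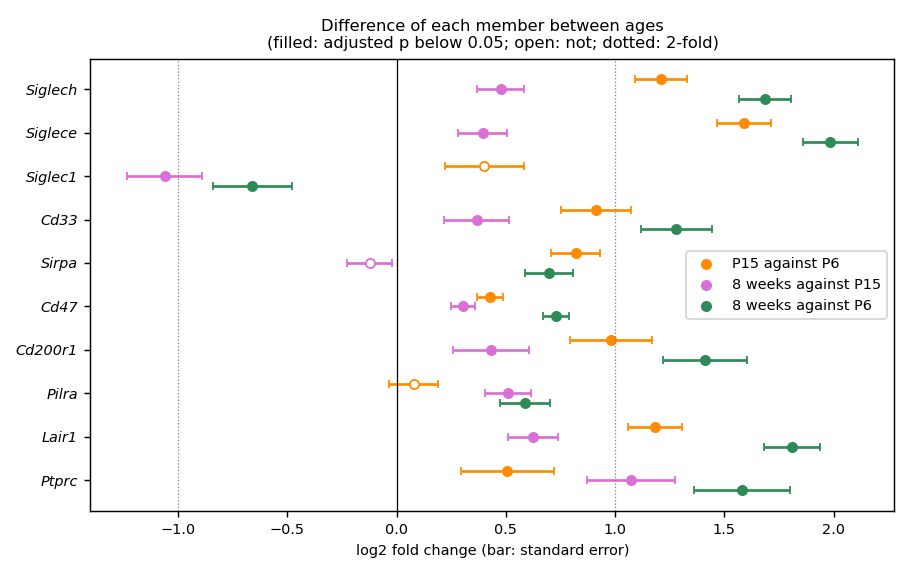
Log2 fold change of each of the 10 members (horizontal axis, log2 scale) in the 3 comparisons of ages, with bars of 1 standard error, for 34 mice. Filled points have an adjusted p below 0.05 and open points do not, dotted lines mark a 2-fold change, and Siglec1 is the member whose adult values lie to the left of 0.

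The counts between P6 and 8 weeks changed in 2 fits that used marker genes of cell types. With the mean level of the neuronal and neural progenitor markers added to the fit as a covariate, 4 members were called higher at 8 weeks than at P6 (Siglech, Siglece, Cd47 and Lair1) and 2 lower (Siglec1 and Sirpa), where that fit called 25.6% of all genes higher and 23.6% lower. In the same fit 7 were higher and 1 lower at P15 than at P6 (27.5% and 26.4% of all genes), and 1 was higher and 2 lower at 8 weeks than at P15 (19.9% and 19.6%). That marker level itself fell with age, so the covariate and age share part of their variation. With libraries scaled to the 5 microglial markers, 0 members were called higher and 7 lower, beside 2.82% and 88.6% of all genes, while the median of all genes moved to -1.88 on the log2 scale. The direction of most members is therefore stated relative to all RNA in the library, not relative to microglial markers. The 5 microglial markers were themselves called higher at 8 weeks than at P6, by unlike amounts. Mean CPM went from 306 to 2572 for Tmem119 and from 380 to 851 for Sall1. Scaling to them cannot tell a change in the cell mixture from a change in their RNA per cell.

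Per kilobase of exon, the level of the members spanned a wide range, and the order was much the same at each age. At 8 weeks Sirpa stood first at 509 ± 54.6 CPM per kb (SD, n = 12), followed by Siglech at 372 ± 34.99. Cd33 (96.4 ± 18.3), Lair1 (76.6 ± 7.29) and Siglece (67.7 ± 9.58) formed a middle group. In that group Cd33 lay above Lair1 in 11 of 12 adults and Lair1 above Siglece in 10 of 12. Cd47 (27.4 ± 1.81) and Ptprc (17.3 ± 5.59) came next in CPM per kb, and Pilra (6.37 ± 1.53), Cd200r1 (5.48 ± 1.17) and Siglec1 (3.70 ± 0.940) were the lowest. Pilra exceeded Cd200r1 in 6 of 12 adults, so these neighbours were not separated. At P6 Siglec1 ranked above Pilra and Cd200r1, at 5.75 ± 1.77 CPM per kb (n = 10).

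**Figure D2:**
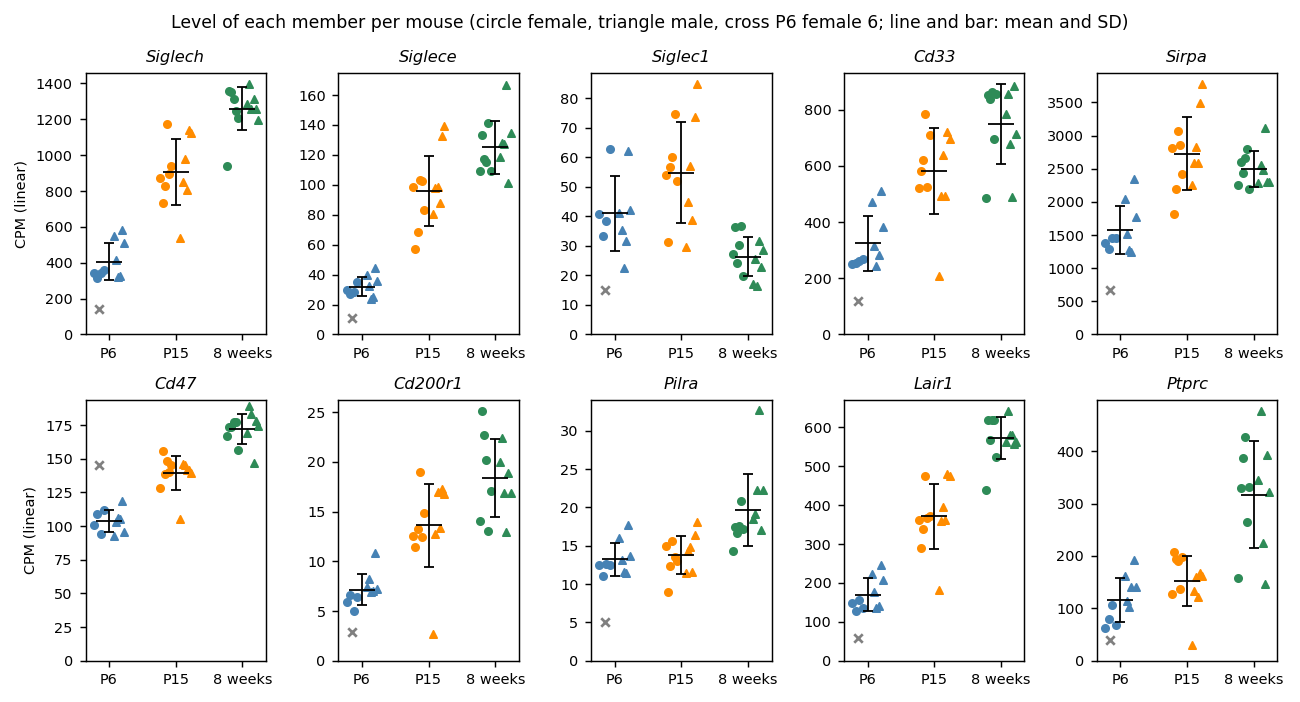
CPM of each member (vertical axis, linear, starting at 0) in every mouse at P6, P15 and 8 weeks, with females as circles, males as triangles and the excluded P6 female 6 as a grey cross. Lines and bars are the mean and SD of the mice of an age without P6 female 6. Siglec1 is highest at P15, Sirpa is level after P15, and P15 male 1 lies far below the other P15 mice for Ptprc, Cd33 and Cd200r1.

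The Siglecs were led by Siglech, which in mice is a marker of microglia and of plasmacytoid dendritic cells. Its lowest, median and highest levels were 313, 351 and 584 CPM at P6, 536, 881 and 1172 CPM at P15, and 937, 1272 and 1394 CPM at 8 weeks. Every adult was above every P6 mouse, and 1 P15 mouse, P15 male 1, fell within the P6 range. The log2 fold change was 1.21 ± 0.12 (SE) from P6 to P15 and 0.48 ± 0.11 from P15 to 8 weeks, with adjusted p of 1.96e-10 and 0.000584. Under the covariate of neural markers the first step was 0.77 (adjusted p 2.75e-09), the second was -0.13 and not called (adjusted p 0.303), and the difference between P6 and 8 weeks went from 1.69 to 0.64 (adjusted p 0.000634). Markers of plasmacytoid dendritic cells (Ccr9, Klk1 and Ly6d) summed to at most 5.67 CPM in any of the 34 mice. Of the 2 that were tested, 0 were called between P6 and 8 weeks, while 1, Ly6d, was called higher from P6 to P15 and lower from P15 to 8 weeks. The part of these cells in the level of Siglech was not tested. Klk1 was at 0 in at least 1 mouse and had at most 16 counts. P6 female 6 had 143 CPM of Siglech.

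Siglece, an ITIM-bearing Siglec whose product dampens phagocytic oxidative burst, had the largest change of the members between P6 and 8 weeks. It measured 23.5, 31.0 and 44.3 CPM at P6 (lowest, median, highest), 57.2, 98.3 and 139 CPM at P15, and 101, 123 and 167 CPM at 8 weeks. The P6 mice were separate from both later ages, which overlapped each other. The log2 fold change was 1.59 ± 0.12 from P6 to P15 (adjusted p 1.32e-12) and 1.98 ± 0.13 from P6 to 8 weeks (adjusted p 3.83e-15). The difference between P6 and 8 weeks was 0.89 in the fit with neural markers (adjusted p 2.29e-05) and 0.086, not called, with libraries scaled to microglial markers (adjusted p 0.322). From P15 to 8 weeks it was 0.39 ± 0.11 (adjusted p 0.00457), and with the neural marker covariate this last difference was -0.24 and no longer called (adjusted p 0.0728).

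Cd33, the mouse gene of the Siglec linked in humans to Alzheimer's disease risk, was higher at both later ages than at P6. Its values were 243, 277 and 511 CPM at P6, 209, 601 and 785 CPM at P15, and 485, 810 and 886 CPM at 8 weeks. The ages overlapped, with P15 male 1 at the bottom of its group and 8 weeks female 1 (485 CPM) and male 4 (487 CPM) at the bottom of theirs. The log2 fold change was 0.91 ± 0.16 from P6 to P15 (adjusted p 1.12e-05) and 1.28 ± 0.16 from P6 to 8 weeks (adjusted p 2.29e-08). The later step, 0.37 ± 0.15 (adjusted p 0.0409), lost its call without P15 male 1, at 0.26 (adjusted p 0.0768), and without P15 female 2, at 0.34 (adjusted p 0.0672). It was also not called with no filter on low counts (adjusted p 0.0769) or without sex in the fit (0.0508). The difference between P6 and 8 weeks was 0.19 in the fit with neural markers (adjusted p 0.613). In that fit the later step of Cd33 was negative.

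Siglec1, or sialoadhesin, ran against the other members. It measured 22.7, 39.7 and 62.9 CPM at P6, 29.8, 55.3 and 85.0 CPM at P15, and 16.5, 26.5 and 36.7 CPM at 8 weeks. The adults sat at the low end and overlapped the lowest mice of both younger ages. Siglec1 fell by 1.06 ± 0.17 on the log2 scale from P15 to 8 weeks (adjusted p 9.58e-06) and by 0.66 ± 0.18 from P6 to 8 weeks (adjusted p 0.00150). From P6 to P15 the log2 fold change was 0.40 ± 0.18, which missed the call (adjusted p 0.0542) but passed it without P15 male 1, at 0.47 (adjusted p 0.0213), without P15 female 2, at 0.44 (adjusted p 0.0306), without P6 female 5, at 0.49 (adjusted p 0.0231), and with all 35 mice, at 0.49 (adjusted p 0.0271). It was also called by DESeq2 (adjusted p 0.0440) and without sex in the fit (0.0401). With the neural marker covariate Siglec1 differed by -2.28 between P6 and 8 weeks (adjusted p 1.59e-08). In that fit its difference from P6 to P15 was negative.

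Markers of border-associated macrophages (Mrc1, Pf4, F13a1, Cd163, Lyve1, Ms4a7 and Cbr2), cells that line the meninges and vessels, moved in the same direction as Siglec1 after P15. From P15 to 8 weeks 7 of the 7 were called lower. Their summed level ranged from 390 to 1188 CPM at P15 and from 392 to 751 CPM at 8 weeks, and at P6 from 739 to 1609 CPM. None was at 0 in any of the 34 mice. Their part in the fall of Siglec1 was not tested.

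Sirpa and Cd47 form a receptor and ligand pair that restrains phagocytosis. Sirpa measured 1245, 1453 and 2350 CPM at P6, 1817, 2704 and 3784 CPM at P15, and 2194, 2458 and 3118 CPM at 8 weeks. It rose from P6 to P15 by 0.82 ± 0.11 (log2, adjusted p 1.84e-07) and then showed a difference of -0.12 ± 0.10 that was not called (adjusted p 0.336). That later difference was -0.72 and called with the neural marker covariate (adjusted p 1.21e-07). Between P6 and 8 weeks the log2 fold change was 0.70 ± 0.11 (adjusted p 1.51e-06). Its sign depended on the fit, being -0.33 in the fit with the neural marker covariate (adjusted p 0.0371) and -1.20 with libraries scaled to microglial markers.

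Cd47 moved less than any other rising member except Pilra and Sirpa between P6 and 8 weeks, but in small, even steps. It measured 92.7, 104 and 118 CPM at P6, 105, 142 and 156 CPM at P15, and 147, 174 and 189 CPM at 8 weeks. Adults did not overlap P6 mice, and the highest P15 mice reached into the adult range. The log2 fold change was 0.43 ± 0.06 from P6 to P15 (adjusted p 2.55e-07) and 0.30 ± 0.06 from P15 to 8 weeks (adjusted p 5.08e-05). Cd47 stayed called in both steps, with the neural marker covariate, at 0.39 (adjusted p 3.96e-05) and 0.25 (adjusted p 0.0233). P6 female 6, low in most members, had 146 CPM of Cd47, above every other P6 mouse.

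The log2 ratio of Sirpa to Cd47 counts in a mouse therefore changed with age in both directions. At P6 the mean was 3.90 ± 0.32 (SD, n = 10), at P15 it was 4.27 ± 0.32 (n = 12) and in adults it was 3.85 ± 0.19 (n = 12). P15 exceeded P6 by 0.37 (two-sided permutation test with 100000 permutations, p = 0.0167, 0.0201 after adjustment over the 6 ratio tests) and 8 weeks was below P15 by -0.41 (permutation p = 0.00146, adjusted 0.00292). The difference between 8 weeks and P6 was -0.046 (permutation p = 0.684). The ranges overlapped in all 3 comparisons. P6 female 6 had a ratio of 2.20. Among mice of the same age and sex, Sirpa had r = -0.89 with neural progenitor markers and Cd47 had -0.22. With the difference between long and short genes, described below, they had -0.44 and 0.57. The part of the cell mixture and of transcript length in the ratio was not tested.

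Cd200r1 encodes the receptor for CD200, and signals through the adaptors DOK1 and DOK2 rather than an ITIM. It was among the lowest members, at 4.98, 7.01 and 10.9 CPM at P6, 2.7, 13.3 and 19.0 CPM at P15, and 12.9, 17.9 and 25.2 CPM at 8 weeks. Adults did not overlap P6 mice, and P15 male 1, at 2.7 CPM, was the only P15 mouse below the P6 maximum. The log2 fold change was 0.98 ± 0.19 from P6 to P15 (adjusted p 4.51e-05) and 1.41 ± 0.19 from P6 to 8 weeks (adjusted p 8.77e-08). The step from P15 to 8 weeks, 0.43 ± 0.17 (adjusted p 0.0404), was lost when only the groups compared entered the fit (adjusted p 0.0589), without P15 female 2 (adjusted p 0.0736) and with no filter on low counts (adjusted p 0.0696). Adding the neural marker covariate brought the difference between P6 and 8 weeks to 0.41 (adjusted p 0.388). It also turned the step from P15 to 8 weeks negative.

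Its ligand gene Cd200, which neurons express, fell over the same ages, by 1.58 ± 0.24 on the log2 scale between P6 and 8 weeks (adjusted p 7.91e-07), from a median of 17.1 CPM to 5.57 CPM. The log2 ratio of Cd200r1 to Cd200 counts rose from a P6 mean of -1.28 ± 0.51 (SD, n = 10) to a P15 mean of 0.49 ± 1.36 (n = 12) and an adult mean of 1.67 ± 0.67 (n = 12). All 12 adults were above all 10 P6 mice (permutation p = 2e-05, the smallest the permutations can give, and 0.00012 after adjustment). The steps were 1.77 from P6 to P15 (permutation p = 0.00082, adjusted 0.00246) and 1.18 from P15 to 8 weeks (permutation p = 0.00874, adjusted 0.0131). Neuronal markers summed to 276 to 926 CPM at P6 and 48.4 to 212 CPM at 8 weeks, and their part in the level of Cd200 in these CD45+ libraries was not tested. P6 female 6 had 73.4 CPM of Cd200, a ratio of -4.64 and 1528 CPM of neuronal markers.

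**Figure D3:**
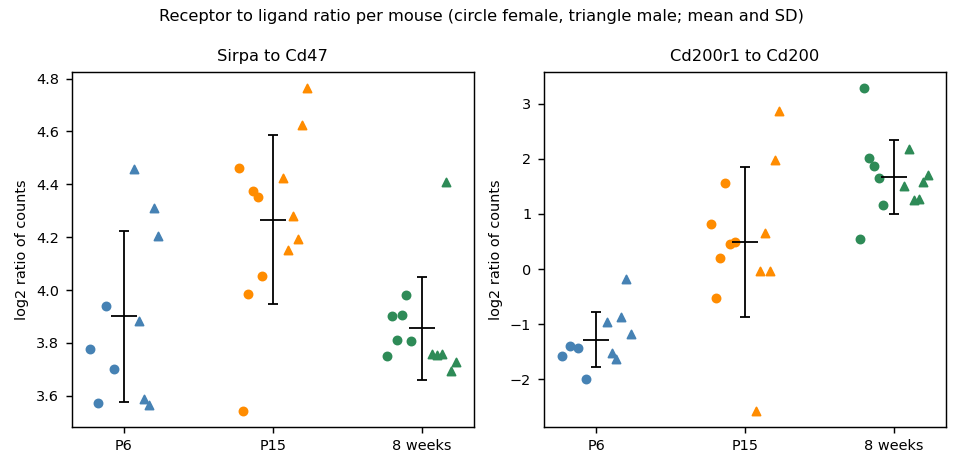
Log2 ratio of counts plus 0.5 (vertical axes) of Sirpa to Cd47 and of Cd200r1 to Cd200 in each of 34 mice at P6, P15 and 8 weeks, with females as circles, males as triangles, and lines and bars for the mean and SD. The Sirpa to Cd47 ratio is highest at P15 on average, and the Cd200r1 to Cd200 ratio of every adult lies above that of every P6 mouse.

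Pilra encodes an ITIM receptor whose activating partners are the products of Pilrb1 and Pilrb2. Its levels were 11.0, 12.6 and 17.8 CPM at P6, 8.99, 13.9 and 18.0 CPM at P15, and 14.4, 18.0 and 32.7 CPM at 8 weeks. The ages overlapped, and the highest value belonged to 8 weeks male 4. Pilra differed little from P6 to P15 (log2 fold change 0.078 ± 0.11, adjusted p 0.559) and rose by 0.51 ± 0.11 from P15 to 8 weeks (adjusted p 0.000232). With the neural marker covariate both were negative, at -0.30 (adjusted p 0.0126) and -0.034 (adjusted p 0.847). Exons of Pilra overlap those of Zcwpw1 on the opposite strand over 468 bases, and counting was stranded.

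Lair1, the collagen and C1q receptor, was second to Siglece in the change between P6 and 8 weeks. It measured 129, 152 and 247 CPM at P6, 182, 365 and 479 CPM at P15, and 438, 574 and 642 CPM at 8 weeks. Adults were separate from P6 mice, and 8 weeks female 1, the lowest adult, lay within the P15 range. The log2 fold change was 1.18 ± 0.12 from P6 to P15 (adjusted p 1.20e-09), 0.62 ± 0.11 from P15 to 8 weeks (adjusted p 5.06e-05) and 1.81 ± 0.13 overall (adjusted p 5.79e-14). With the neural marker covariate the difference between P6 and 8 weeks was 0.69 (adjusted p 0.000776) and the later step was -0.025 (adjusted p 0.880).

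Ptprc encodes CD45, a phosphatase that activates Src family kinases and on whose product the cells were captured. It measured 62.7, 110 and 192 CPM at P6, 30.1, 161 and 207 CPM at P15, and 146, 330 and 476 CPM at 8 weeks. Its log2 fold change was 0.51 ± 0.21 from P6 to P15 and 1.07 ± 0.20 from P15 to 8 weeks (adjusted p 7.08e-05). In the fit with neural markers these were 0.13 (adjusted p 0.685) and 0.54 (adjusted p 0.181), and the difference between P6 and 8 weeks was 0.67 (adjusted p 0.238), so that no call on age was left. The first step was called at an adjusted p of 0.0396 and lost its call without P6 female 1 (0.0841), female 2 (0.0732) or female 5 (0.0900), without P15 female 2 (0.0724), and in limma-voom (0.108). It was also lost with scaling by library size alone (adjusted p 0.114), with no filter on low counts (0.0783), with at least 10 counts in every mouse (0.0513), without sex in the fit (0.146) and with a replicate block (0.0756).

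Promoter sequences of 6 members were examined (RefSeq, GRCm38.p6, 250 bases before to 50 after a start site). They were searched on both strands for AGGAAG, the core of the sites bound by PU.1, an ETS factor that myeloid cells depend on. The letters stood in 4 of the 6 (Siglece, Cd33, Pilra and Lair1) and in 38.4% of the 27024 genes with a promoter in the table, and were not in the windows of Siglech and Cd47. The stretches below are shown because they hold the match nearest the start site of each of these 4 genes, in lower case with the match in capitals (CTTCCT is the same motif on the other strand), and each is written 5′ to 3′ along the gene, which is the minus strand in every case.
Siglece, chr7:43660181-43660210: cttccgctggggCTTCCTcagggccttgca
Cd33, chr7:43533145-43533174: ctcacccatgacAGGAAGcgtcaaccaccc
Pilra, chr5:137836259-137836288: ccagatcaataaAGGAAGttgctggccaca
Lair1, chr7:4063214-4063243: gaagagaaacctCTTCCTctccatgtgggg
The matches began 37 bases before the start site in Siglece, 27 before it in Lair1, and just inside the transcript in Cd33 and Pilra. A match is a run of letters and not a measured site. The 4 genes with it were all called higher at 8 weeks than at P6, as were Siglech and Cd47 without it.

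Among mice of the same age and sex, the members fell along a gradient rather than moving as one. The deviation of each mouse from its group mean of log2 CPM was correlated between members over 34 mice, as a description, since the values of a mouse share its library and its cell mixture. Siglech and Lair1 deviated together most closely (Pearson r = 0.96), then Siglece and Sirpa (0.94) and Cd33 and Ptprc (0.90). Siglece, Sirpa and Pilra had little in common with Ptprc (0.13, 0.24 and 0.07) or with Cd47 (0.01, 0.05 and -0.10). Siglech and Lair1 sat between, with r of 0.64 and 0.69 to Ptprc and of 0.77 and 0.74 to Siglece.

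The genes most like each member by this measure were drawn from all protein-coding genes tested. Ptprc deviated with Itsn2, Slc4a7 and Dock10 (r = 0.98 to 0.99), and Cd33 with Mgat4a, Cflar and Arhgef6 (0.97 each). Siglece was closest to Lgmn, Ptgs1 and Ptpn6 (0.97 each), Sirpa to Scamp2, Dnm2 and Slco2b1 (0.97 each) and Pilra to Ankrd13a, Ptpn6 and Nmt1 (0.92 to 0.93). Ptpn6, which encodes the phosphatase SHP-1, thus stood among the 3 closest genes of both Siglece and Pilra. Siglech was closest to Ikzf1, Vwa5a and Lair1 (0.96 to 0.97), Lair1 to Mpeg1, Serinc3 and Sla (0.96 to 0.97), and Siglec1 to Znfx1, Foxk1 and Atp6v0a2 (0.89 to 0.91). Cd200r1 was closest to Wtap, Dennd6a and Thumpd3 (0.94 to 0.95). Cd47 had the loosest partners, Scamp1, Dcaf17 and S100pbp (0.81 to 0.82).

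**Figure D4:**
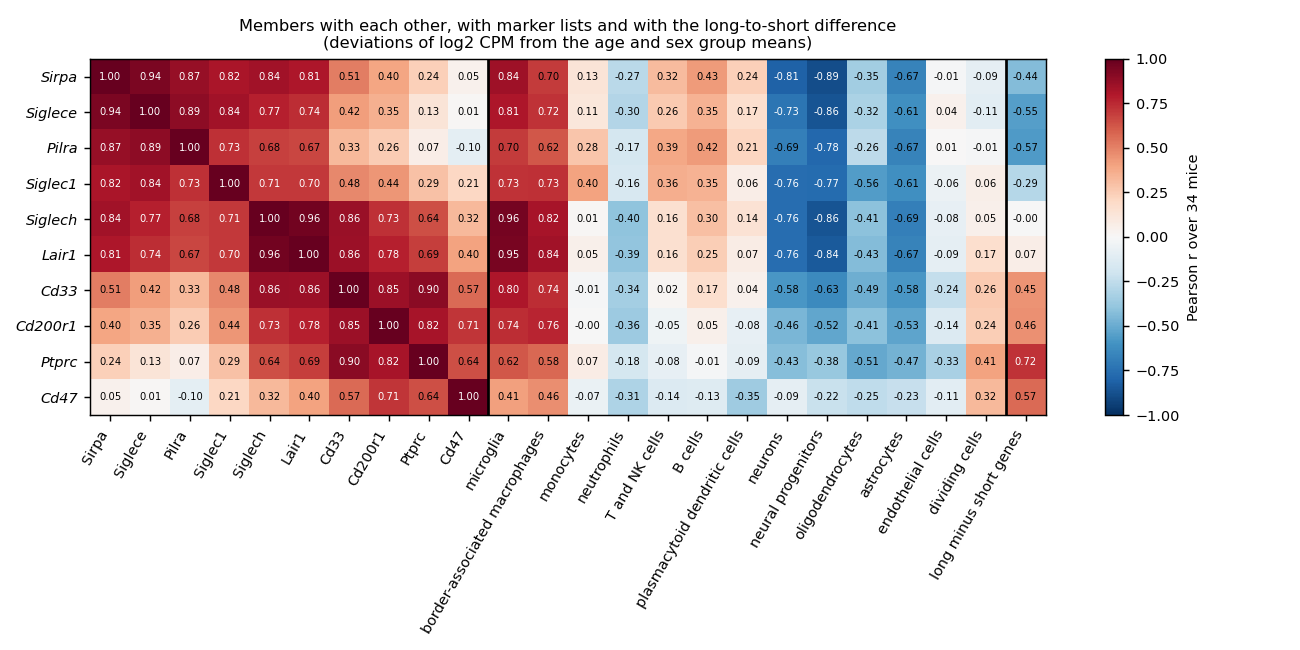
Pearson r over 34 mice (colour scale from -1 to 1, value in each cell) between deviations from the age and sex group means, for each member (rows) with the other members, with 13 marker lists and with the difference between long and short genes in a library. Sirpa, Siglece and Pilra correlate positively with each other and negatively with long minus short genes, Ptprc shows the reverse, and Siglech and Lair1 reach 0.96 and 0.95 with the microglial markers.

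The cell mixture and the length of transcripts moved with these deviations. Siglech had r = 0.96 and Lair1 0.95 with the microglial markers, and Cd47 had the lowest, 0.41. Sirpa had r = -0.89 with neural progenitor markers and Cd47 had -0.22. A library's balance of long against short genes was taken as the mean deviation of the 1480 longest protein-coding genes (9914 bases of exon or more) minus that of the 1480 shortest (1772 bases or fewer). Ptprc, whose 18313 bases of exon are the most of any member, had r = 0.72 with that balance, whereas Pilra had -0.57 and Siglece, the shortest member at 1849 bases, had -0.55. The other members did not follow their length. Cd200r1, at 3348 bases, had 0.46 and Siglech, at 3383 bases, had -0.0045, while Siglec1 (7143 bases) had -0.29, Lair1 (7475 bases) 0.066 and Cd33 (7771 bases) 0.45. Cd47 (6276 bases) had 0.57 and Sirpa (4911 bases) -0.44. The part of either in the members' levels was not tested.

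Along that gradient 4 libraries are described, chosen after their values were seen. P15 male 1 deviated from its group mean by -1.91 in Ptprc (log2 scale), and was at -2.06 in Cd200r1 and -1.27 in Cd33, but at -0.35 in Sirpa and -0.32 in Pilra. It also had the most oligodendrocyte marker RNA of any P15 mouse, 3745 CPM, and a long against short balance of -0.58. Its microglial markers deviated by -0.78 and its neural markers by 1.15. In 8 weeks male 4 the balance was -0.72, with Ptprc at -1.03 and Cd33 at -0.56 while Pilra was at 0.60 and Sirpa at 0.32. In 8 weeks female 1 Ptprc was at -0.93 and Cd33 at -0.63 while Sirpa was at -0.14, with a balance of -0.28 and neural markers at 0.97. P15 female 2 went the other way, with a balance of 0.54, Siglece at -0.54, Pilra at -0.52 and Ptprc at 0.26, and neural markers at 0.91. Without P15 male 1, 9 members were called higher at P15 than at P6 and 7 higher at 8 weeks than at P15. Without 8 weeks male 4 the counts were 9 higher and 1 lower against P6, and 8 higher and 1 lower against P15, as with all mice, and without 8 weeks female 1 they were the same numbers. Without P15 female 2, 8 were higher and 0 lower at P15 than at P6, and 6 were higher and 1 lower at 8 weeks than at P15. The shares of all genes called in these refits were not taken. Changes in the counts are therefore not read as results about the members.

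No member was called between males and females at any age, with 0 of 10 called at P6, P15 and 8 weeks by edgeR, DESeq2 and limma-voom, where edgeR called 0.0511%, 0.0681% and 0.114% of all genes. At an unadjusted p below 0.05 there were 4 members at P6 (Siglech, Cd33, Lair1 and Ptprc), 0 at P15 and 1 at 8 weeks (Pilra), where 7.10%, 18.2% and 2.94% of all genes reached it. With libraries scaled to microglial markers the P6 differences between males and females went to 0.02 for Siglech, 0.12 for Cd33, 0.03 for Lair1 and 0.48 for Ptprc, while the median of all genes moved to -0.32 on the log2 scale. Ptprc at P6 had the largest difference, from a mean of 79.1 ± 19.0 CPM in 4 females to 142 ± 32.4 CPM in 6 males, a log2 fold change of 0.84 ± 0.32 (adjusted p 0.696). The interaction of sex with age was called for 0 members and 0.00% of all genes in each of the 3 comparisons of ages. At an unadjusted p below 0.05 it held 2 members between P6 and P15, Ptprc and Cd33, with adjusted p of 0.152 and 0.204, where 20.4% of all genes reached it. In the comparisons of P6 and of P15 with 8 weeks it held 0 members, beside 5.10% and 3.41% of all genes.

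Other genes of the same circuits were taken as lists. Of 18 other inhibitory receptors 17 were tested. Between P6 and 8 weeks 14 were higher and 1 was lower, beside 37.8% and 36.6% of all genes. Their median log2 fold change was 1.33 beside 0.038 over all genes. Vsir, which encodes the checkpoint receptor VISTA, rose by 2.18 ± 0.13, nearly all of it by P15 (2.05 ± 0.13). The checkpoint receptors Btla (2.06), Havcr2 (2.01) and Pdcd1 (1.87) also rose past 2-fold between P6 and 8 weeks. Btla and Pdcd1 are known from lymphocytes, and markers of T and NK cells summed to 2.26 to 4.86 CPM at P6 and 7.62 to 33.8 CPM at 8 weeks, with 5 of 5 called higher. B cell markers (Cd79a, Cd79b and Ms4a1) summed to 18.4 to 41.7 CPM at P6 and 20.1 to 53.2 CPM at 8 weeks, with 2 of 3 called higher and 1 lower. The part of either in these receptors was not tested.

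Of 5 other Siglecs 4 were tested and 4 were higher at 8 weeks than at P6, where 37.8% of all genes were higher and 36.6% lower. Mag, the Siglec of myelin, rose by 1.75 ± 0.24 while the oligodendrocyte markers summed to 216 to 542 CPM at P6 and 447 to 2068 CPM at 8 weeks, with 5 of 5 called higher. Of these 4 Siglecs, 3 were called lower at 8 weeks than at P15 (Mag, Siglecf and Siglecg), beside 23.9% of all genes. The other 1, Cd22, was called higher, beside 24.0% of all genes. Of the 5 oligodendrocyte markers 4 were called lower and 0 higher in that step, with a median log2 fold change of -1.05. Cd22 is known from B cells, whose markers were called higher in 0 and lower in 1 of 3 in that step. The part of oligodendrocytes or B cells in these Siglecs was not tested.

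The paired activating receptors, whose products couple to DAP12 or related adaptors, were mostly higher in the adult. Of 9 tested, 7 were called higher and 1 lower at 8 weeks than at P6, beside 37.8% and 36.6% of all genes. The lower gene was Cd200r4, related to Cd200r1, whose 10 P6 mice averaged 3.30 ± 0.740 CPM (SD), the 12 P15 mice 0.444 ± 0.258 and the 12 adults 0.957 ± 0.378, a log2 fold change of -1.76 ± 0.27 between P6 and 8 weeks (adjusted p 9.78e-07). From P6 to P15, 1 of the 9 was higher and 3 were lower, beside 30.4% and 31.4% of all genes. From P15 to 8 weeks 9 of 9 were higher, beside 24.0% of all genes. Of these, Sirpb1a and Sirpb1b reached the filter on low counts through the adults alone, so that their being higher was partly set by the filter. Without this pair 7 of 7 were higher in that step (24.0% of all genes), 4 of them past 2-fold (1.20%). Their median log2 fold change was 1.51 beside 0.018 over all genes. At 8 weeks against P6, 5 of the 7 were higher and 1 lower. Sirpb1a had medians of 0.145, 0.178 and 0.788 CPM at P6, P15 and 8 weeks, with 1 to 10 counts in a P6 library, near the smallest amount taken as detected. Sirpb1b had medians of 0.300, 0.0988 and 1.18 CPM at these ages, with 2 to 20 counts in a P6 library. Among the better measured genes Lilra5 (1.88 ± 0.14) and Cd300ld (1.84 ± 0.19) rose past 2-fold between P6 and 8 weeks. Sirpb1a, Sirpb1b and Sirpb1c are near-identical copies, as are Pilrb1 and Pilrb2, so the split of reads within each family is uncertain. From P15 to 8 weeks Sirpa, the inhibitory partner of the Sirpb1 products, had a log2 fold change of -0.12. Blood cell markers moved in that step too. Of 4 monocyte markers (Ccr2, Ly6c2, Plac8 and Chil3) 3 were called higher, and their sum went from 11.6 to 22.9 CPM at P15 to 17.1 to 67.4 CPM at 8 weeks. Of 4 neutrophil markers (S100a8, S100a9, Retnlg and Ngp) 3 were called higher and 1 lower, and their sum went from 14.8 to 91.9 CPM to 29.4 to 200.3 CPM. The part of these cells in the activating receptors was not tested.

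Of 11 ligands tested, 4 were higher and 5 lower at 8 weeks than at P6, which is near the shares of all genes (37.8% and 36.6%). The 5 were the collagens Col3a1 (-3.86 ± 0.26), Col1a1 (-3.10 ± 0.23) and Col4a1 (-2.86 ± 0.31), which LAIR1 binds as protein, Cd24a (-3.75 ± 0.22), a ligand of Siglec-G, and Cd200. C1qa, whose product also binds LAIR1 and is made by microglia, rose by 1.41 over the same ages. Thus the named collagen genes and Lair1 differed with age in opposite directions in the same libraries. Collagens and Cd24a are also expressed by vascular, meningeal and neural progenitor cells, and neural progenitor markers were lower in 7 of 7 genes. Endothelial markers (Cldn5, Flt1 and Esam) were called higher in 1 of 3 and lower in 0, and their sum had a median of 34.8 CPM at P6 and 75.1 CPM at 8 weeks. The part of either in the ligands was not tested.

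Among genes for the synthesis and transfer of sialic acid, the sugar that Siglecs bind, 13 of 21 tested were higher and 6 lower at 8 weeks than at P6, where 37.8% and 36.6% of all genes were, with a median log2 fold change of 0.26 beside 0.038 over all genes. St8sia2, which makes polysialic acid in the developing nervous system, fell by 5.28 ± 0.41, and St6gal2 by 2.40 ± 0.35. Over these ages 7 of 7 neural progenitor markers (median log2 fold change -4.86) and 4 of 6 neuronal markers were called lower, and their part in these falls was not tested. St8sia6 (3.03 ± 0.33) and St3gal6 (2.10 ± 0.13) rose. St8sia6 did so after P15, with a log2 fold change of 2.73 from P15 to 8 weeks, while St3gal6 was 1.53 higher by P15.

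Of 18 genes for the signalling downstream of the receptors 13 were higher and 3 lower at 8 weeks than at P6, beside 37.8% and 36.6% of all genes, and their median log2 fold change was 0.62. The Src family kinases Fgr (2.18 ± 0.20) and Lck (1.85 ± 0.23) rose and Fyn (-1.64 ± 0.09) fell, as did the adaptor gene Dok2 (-1.44 ± 0.14). The other adaptor gene, Dok1, went up from a mean of 33.2 CPM at P6 to 74.8 CPM at 8 weeks. Lck, best known from T cells, had a mean of 1.34 CPM at P6 and 4.62 CPM at 8 weeks. Over the same ages 5 of 5 T and NK cell markers, 3 of 4 monocyte markers and 3 of 4 neutrophil markers were called higher, and their part in Fgr and Lck was not tested. Neural progenitor markers were lower in 7 of 7, and of 6 neuronal markers 4 were lower and 1 higher. The part of these cells in Fyn was not tested. The phosphatase genes Inpp5d (1.22 ± 0.12) and Ptpn6 (0.65 ± 0.13) were higher (adjusted p 1.79e-10 and 4.06e-05). Tyrobp, for the adaptor through which Siglec-H signals, had a log2 fold change of 0.21 ± 0.12 that was not called (adjusted p 0.104), over ages in which Siglech had 1.69 ± 0.12.

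**Figure D5:**
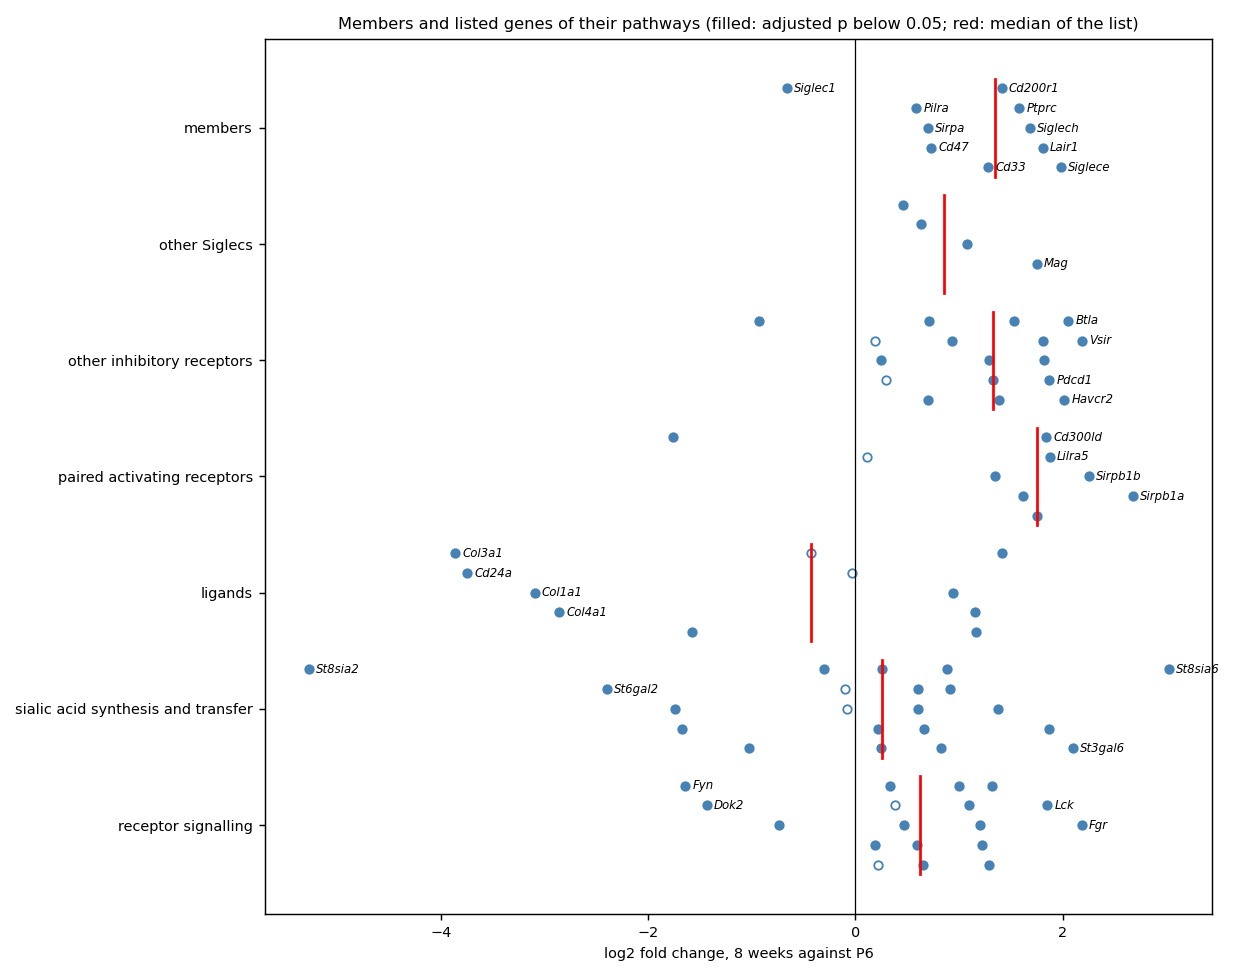
Log2 fold change between P6 and 8 weeks (horizontal axis, log2 scale) of the 10 members and of the tested genes of 6 lists, with the 4 largest changes past 2-fold named per list and the median of each list in red; vertical position within a list has no meaning. Filled points have an adjusted p below 0.05; the ligands and sialic acid genes spread to both sides of 0 while the members lie to the right except Siglec1.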

How the data were processed

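The authors aligned reads to GRCm38/mm10 with STAR and counted fragments with featureCounts (Subread) in reverse-stranded mode, and deposited the raw counts of each gene in each mouse, not normalised. The annotation release is not given in the sources used here. Genes were named from GENCODE M21, which matched 55141 of 55401 identifiers. Here a gene was tested if 5 or more mice reached 0.5 CPM, and counts were scaled by TMM and fitted with edgeR 4.0.16 (quasi-likelihood test, 1 mean per age and sex, R 4.3.3) over 34 mice, with p adjusted over all 17612 genes. CPM uses TMM-scaled totals, and exon length is the union of a gene's exons. DESeq2 1.42.0, limma 3.58.1 and other settings were alternatives. Ratios used counts plus 0.5 and permutation tests (scipy 1.17.1). The test was checked on simulated counts. No 2 libraries of a group were copies (lowest chi-square per gene 12.5).

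The members, gene lists and tests were chosen with earlier results of these data known, and the promoter motif with the promoter sequences in view. Named genes were the 10 members, up to 4 genes per list past 2-fold between P6 and 8 weeks with the largest change, Cd200, Tyrobp, Ptpn6 and Inpp5d, and the 3 protein-coding genes that deviate most like each member. Pilrb1, Pilrb2, Sirpb1c, Cd200r4, C1qa, C1qb, C1qc, Dok1, Cd22, Siglecf and Siglecg were named after their values were seen. Mice of a group were separate animals, so the p-values measure the spread between mice. No label names a library or sequencing batch. The miRNA libraries were not used here, and 2 marker genes and 1 promoter are not reported here.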

Additional observations from a re-analysis of the deposited data

Results flagged for a closer look

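In each group of 4 to 6 mice of one age and sex, the mouse whose gap to the nearest other exceeded the critical share of the group's range was picked out, over 60 tests of a member in a group, of which chance would pick about 1 in 20. There were 9 such values. P15 male 1 gave 3 of them, with Cd47 at 105 CPM (the other 5 males 139 to 146), Cd200r1 at 2.7 CPM (12.7 to 17.2) and Ptprc at 30.1 CPM (122 to 167). 8 weeks male 4 gave 2, with Sirpa at 3118 CPM (2289 to 2549) and Pilra at 32.7 CPM (17.1 to 22.3). The remaining 4 came from different mice. Siglech was at 937 CPM in 8 weeks female 1 (1208 to 1358), and Lair1 at 642 CPM in 8 weeks male 2 (558 to 581). Cd200r1 was at 10.9 CPM in P6 male 5 (6.95 to 8.19), and Pilra at 11.01 CPM in P6 female 2 (12.5 to 12.6).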

How the results depend on the processing

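Normalisation by DESeq2's size factors, DESeq2, limma-voom, both other filters and leaving out each P6 female left the counts of members within 1.5 times their values, with 7 to 8 called higher at P15 than at P6 without one of the P6 females. Fits without P15 male 1, 8 weeks male 4, P15 female 2 or 8 weeks female 1, and list counts without genes that 1 age alone brought past the filter, were added after seeing the data. The test against a 2-fold change called 6 higher and 0 lower between P6 and 8 weeks, 1 higher between P6 and P15, and 0 higher and 0 lower between P15 and 8 weeks. With the neural marker covariate the counts were 4 higher and 2 lower (8 weeks against P6), 7 higher and 1 lower (P15 against P6), and 1 higher and 2 lower (8 weeks against P15). With libraries scaled to microglial markers they were 0 and 7, 0 and 9, and 5 and 2, while the median of all genes moved to -1.88, -1.70 and -0.21. The share of all genes called under this scaling was taken for 8 weeks against P6 alone (2.82% higher and 88.6% lower). The other counts under it have no background beside them and are not read as results about the members. The cause of these shifts was not tested.

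Single members changed direction under 3 settings (log2 fold changes). With the neural marker covariate, Sirpa was at -0.33 and Pilra at -0.33 between P6 and 8 weeks, and Siglec1 at -0.28 and Pilra at -0.30 between P6 and P15. Between P15 and 8 weeks Siglech was at -0.13, Siglece at -0.24, Cd33 at -0.27, Cd200r1 at -0.13, Pilra at -0.034 and Lair1 at -0.025. With microglial marker scaling between P6 and 8 weeks, Siglech was at -0.22, Cd33 at -0.62, Sirpa at -1.20, Cd47 at -1.20, Cd200r1 at -0.52, Pilra at -1.32, Lair1 at -0.10 and Ptprc at -0.34. Between P6 and P15 they were Siglech -0.51, Siglece -0.12, Siglec1 -1.32, Cd33 -0.81, Sirpa -0.88, Cd47 -1.28, Cd200r1 -0.79, Pilra -1.63, Lair1 -0.55 and Ptprc -1.23. By library size alone Pilra was at -0.053 between P6 and P15. The ratio of Sirpa to Cd47 turned from -0.046 to 0.11 between P6 and 8 weeks with all 35 mice, and was not called in either case.

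The replicate numbers mark separate mice. Same-numbered mice of a sex at other ages had correlations from -0.30 to 0.57 (median 0.079, 13 of 32 pairs over 0.1). For mice of other numbers they ran from -0.50 to 0.61 (median -0.013, 44 of 160 pairs over 0.1). These values do not settle whether same-numbered mice share more than other mice do. With a replicate block the counts were 9 higher and 1 lower, 8 and 0, and 8 and 1, with Siglec1 called (0.39, adjusted p 0.0364) and Ptprc not (0.45, adjusted p 0.0756) between P6 and P15. The lowest member, Cd200r1, and sums of rare markers are limited most by depth.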
